A study of Mus musculus with 12 samples.

Results

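The 10 genes described here mark Ly6C-high monocytes, the classical or inflammatory monocytes of mouse blood: Ly6c2, Ly6c1, Ccr2, F13a1, Vcan, Fn1, Chil3, Plac8, Emb and Hp. They were chosen by name as known markers, and all 10 were found by their Entrez number among the 23279 genes tested. The arrays measured RNA of cells labelled as blood monocytes in C57BL/6 LyzCre mice aged 6 to 8 weeks, with 6 arrays labelled TRIM33 and 6 labelled WT. Per the series design the cells were sorted on CD11b, CD115 and high Ly6C, while the labels' treatment text describes CD4 T cells of another strain; the design was followed. LyzCre is a recombinase driven from a lysozyme locus, active in monocytes, macrophages and neutrophils, and all 12 arrays carry that strain label, so the groups differ by label only in TRIM33, a ubiquitin ligase that binds chromatin and SMAD proteins. The sources do not state whether the WT mice carry the recombinase. Of the 6 arrays of a genotype, 2 have titles that call them mixes, with no word on whether a mix pools animals. The labels do not tie arrays to animals; p-values therefore measure array-to-array spread, which may be technical.

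Classical monocytes leave the marrow through CCR2, circulate briefly, and enter inflamed tissue, where they become macrophages or dendritic cells; those that stay in blood turn into Ly6C-low patrolling monocytes. Ly6C, the antigen of the sort, is a small protein held to the membrane by a lipid anchor and encoded by the neighbouring genes Ly6c1 and Ly6c2. The other markers include proteins that these cells secrete, among them matrix and plasma proteins and a chitinase-like protein. A marker set of this kind is used to describe cell identity. The cells were selected on Ly6C, so a high level of its genes is no independent check of that identity. In RNA of a whole sorted sample, fewer cells of a type and less RNA per cell cannot be told apart.

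No marker differed between genotypes past the threshold, an adjusted p of 0.05 from limma's test with Benjamini-Hochberg adjustment over all genes: 0 of 10 passed, where 0.0215% of all genes did. The arrays themselves formed 2 sets of 6, each with 3 arrays of either genotype. In 1 of them (the Y set) 8 of the 10 markers had a higher mean, where 11564 of all 23279 genes did. The difference on the log2 scale was 1.51 for Vcan, 0.32 for Plac8, 0.29 for Ccr2, 0.04 for Ly6c2 and 0.03 for Emb and Hp. One set (the Xist set: TRIM33 replicates 4 to 6 and WT replicates 1 to 3) read 9.01 to 10.2 on the log2 scale for Xist, the RNA of the silenced X chromosome, and the other (the Y set, which holds all 4 mixes) read 8.09 to 8.47 for the Y-linked Eif2s3y. The sets were found from the arrays by clustering, so differences between them are described and not tested. Trim33 read 6.06 to 6.23 on the TRIM33 arrays and 6.81 to 7.05 on the WT arrays, which followed the labels. Array medians lay between 4.16 and 4.25.

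Ly6c2 encodes, with Ly6c1, the antigen used for the sort, and lies on chromosome 15 at 75108161 to 75112066 of GRCm38.p6. Ly6c1 lies beside it at 75044018 to 75048920, a gap of 59.2 kb. The bases just outside each gene's annotated 5′ end are shown because both genes encode the antigen on which the cells were sorted. Both are on the minus strand and come from RefSeq, GRCm38.p6; capitals mark AGGAAGT, the core of the motif of PU.1, a transcription factor of myeloid cells.
Ly6c2, chr15:75112067-75112221: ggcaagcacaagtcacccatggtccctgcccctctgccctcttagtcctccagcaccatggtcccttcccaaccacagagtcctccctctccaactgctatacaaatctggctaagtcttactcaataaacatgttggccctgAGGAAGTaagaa
Ly6c1, chr15:75048921-75049087: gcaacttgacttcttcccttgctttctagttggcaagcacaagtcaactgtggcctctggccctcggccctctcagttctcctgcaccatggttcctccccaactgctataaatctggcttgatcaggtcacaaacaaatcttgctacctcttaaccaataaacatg
The 2 stretches aligned over 134 bases, of which 99 (73.9%) were identical. The capitals in the Ly6c2 stretch end 5 bases before the annotated gene. Each printed stretch is only the part of a window, searched below, that lies outside the annotated gene. The Ly6c1 stretch holds no match, so the match counted below for Ly6c1 lies beyond its printed bases. The print therefore shows no difference between the genes in having the motif.

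The window of 250 bases before to 50 after each annotated start was searched on both strands for 4 motifs, none of which contains another. RefSeq windows matched 8 of the 10 markers, with 12 windows in all, and windows of a gene can overlap. AGGAAGT was in 5 of the 12 windows, from Ly6c2, Ly6c1, F13a1 and Chil3, against 9.35% of all 32851 windows. TTGCNNAA, a form of the C/EBP site, was in 1 (Plac8) against 10.8%, TATAAA in 2 (Ly6c1 and Chil3) against 13.6%, and a form of the interferon response element (GAAA, any 2 bases, GAAA) in 0 against 3.44%. A match describes letters in a window and not a bound site.

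Ly6c2 was high and even on every array. On the TRIM33 arrays it read 12.55, 12.28 and 12.48 (Y set) and 12.35, 12.41 and 12.33 (Xist set), and on the WT arrays 12.35, 12.29 and 12.27 (Y set) and 12.20, 12.23 and 12.45 (Xist set). The groups overlapped: 5 of 6 TRIM33 arrays lay above the WT mean, but TRIM33 replicate 2 lay below it. TRIM33 minus WT came to 0.10 as a log2 difference (SE 0.0742; limma adjusted p = 1.0), and its 95% interval was 0.961-fold to 1.2-fold. Its SD over the 12 arrays, 0.106, was below that of all but 3.84% of genes.

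Ly6c1 was the only 1 of the 10 markers below the array median; the other 9 lay above it on all 12 arrays. It read 3.58, 2.76 and 3.02 on the TRIM33 and 2.92, 2.43 and 2.34 on the WT arrays of the Y set, and 3.25, 3.57 and 3.46 on the TRIM33 and 3.74, 3.79 and 3.22 on the WT arrays of the Xist set. Over all arrays the genotypes differed by 0.20 (SE 0.261; limma adjusted p = 1.0), and by 0.05 without WT replicate 6, 0.07 without WT replicate 5, 0.30 without TRIM33 replicate 2, 0.33 without WT replicate 1 and 0.34 without WT replicate 2. In the Y set the TRIM33 mean was higher by 0.55 and in the Xist set lower by 0.16. The interaction of genotype and set was -0.71 (SE 0.314, limma adjusted p = 0.996). All of these levels lay under the array median, and the part of background signal in the differences was not tested. Ly6c1 was the only 1 of 10 markers with an unadjusted interaction p under 0.05, as 4.21% of all genes had, and 0 of 10 passed after adjustment, where 0.00430% of genes did. Probes of so similar a pair may not tell the copies apart, and features of different genes set no order between their levels.

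**Figure D1:**
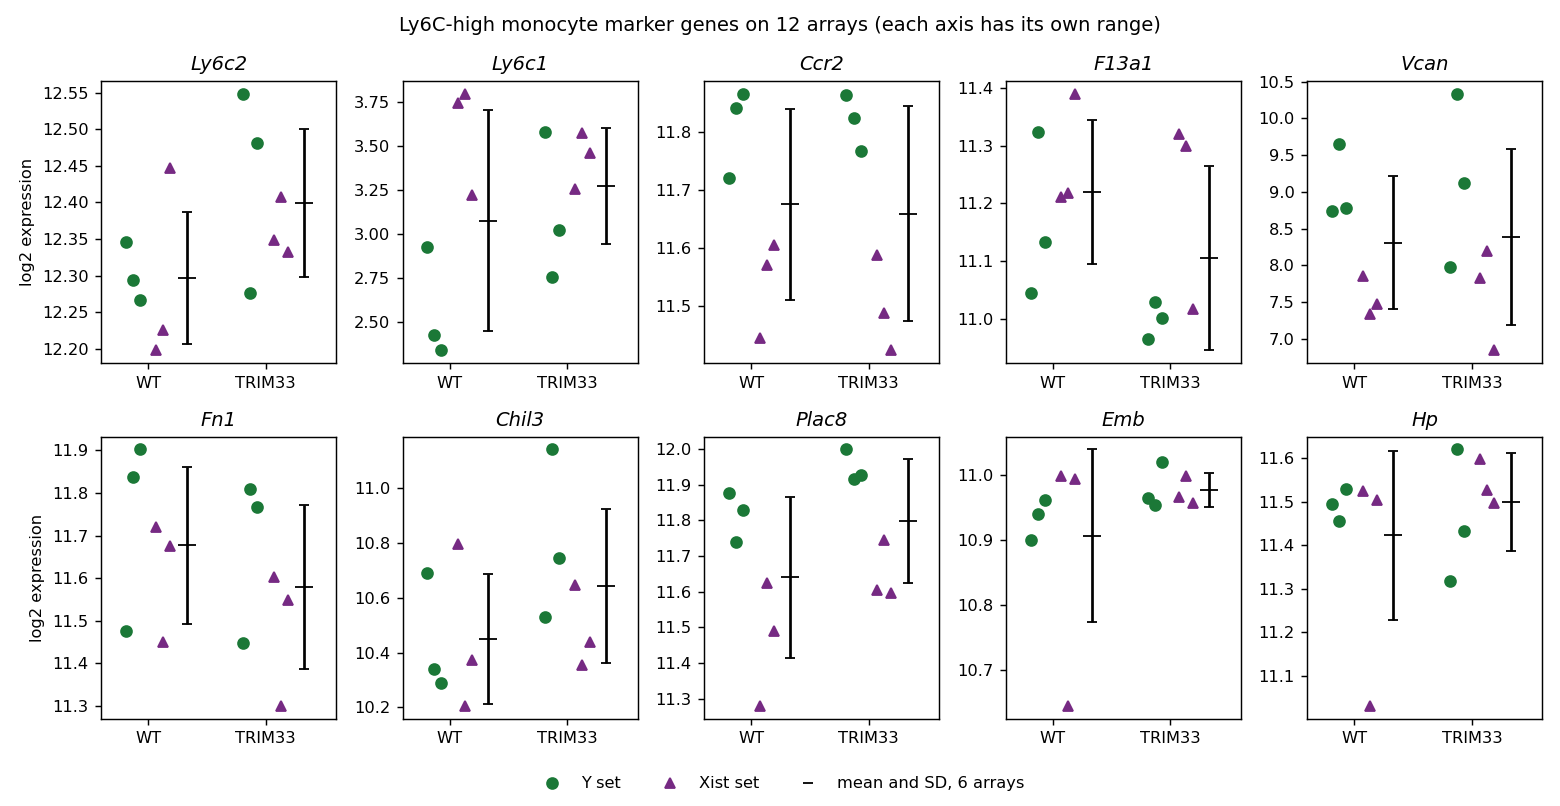
Log2 expression of the 10 marker genes on each array, by genotype, with green circles for the Y set and purple triangles for the Xist set; the black bar gives the mean and SD of 6 arrays, and each panel has its own axis range. The genotypes overlap in all 10 panels, the sets are apart for Ccr2 (11.72 to 11.87 against 11.42 to 11.60), and WT replicate 2 is the low point for Emb and Hp.

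Ccr2 encodes the receptor for the chemokines CCL2 and CCL7 that draws monocytes out of the marrow (chromosome 9, 124101918 to 124109140). It read 11.86, 11.82 and 11.77 on the TRIM33 and 11.72, 11.84 and 11.87 on the WT arrays of the Y set. In the Xist set it read 11.59, 11.49 and 11.42 on the TRIM33 and 11.45, 11.57 and 11.60 on the WT arrays. Every Y-set array was above every Xist-set array in both genotypes, with means of 11.81 ± 0.0577 and 11.52 ± 0.0778 (SD, n = 6), a ratio of 1.23-fold. Ccr2 was the only 1 of the 10 markers whose sets did not overlap, against 14.0% of all genes. Between genotypes it differed by -0.02 (SE 0.105; limma adjusted p = 1.0), with an interval of 0.846-fold to 1.16-fold.

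Of the CCR2 ligands and related receptors, 0 of 9 measured genes passed between genotypes (0 with an unadjusted p under 0.05), with a median difference of -0.06 against -0.01 over all genes. The ligand gene Ccl2 read 7.44 to 9.19 on the Y-set and 7.27 to 9.49 on the Xist-set arrays, and Ccl7 4.44 to 5.08 and 4.51 to 4.99. Ccl8 and Ccl12, further ligands, were below the array median on all 12 arrays. The members with the smallest p were Ackr2, a receptor that clears chemokines, at 0.16 (SE 0.117), and Ccl8 at 0.14 (SE 0.124). Ackr2 lay above the array median on only 3 of 12 arrays. Cx3cr1, the fractalkine receptor that is higher on patrolling monocytes, read 9.66 to 10.75 on the Y-set and 9.04 to 9.70 on the Xist-set arrays.

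Emb, which encodes embigin, a membrane glycoprotein that escorts lactate transporters to the surface (chromosome 13, 117220573 to 117274415), varied least of the markers, with an SD over the 12 arrays of 0.0988. It ranged from 10.95 to 11.02 on the TRIM33 arrays (median 10.97) and from 10.64 to 11.00 on the WT arrays (median 10.95). All 6 TRIM33 arrays lay above the WT mean, a mean pulled down by WT replicate 2, the lowest array. The difference was 0.07 (SE 0.0743; limma adjusted p = 1.0), 0.02 without WT replicate 2 and -0.0066 after a second quantile normalization. The paralogs Bsg and Nptn, which encode basigin and neuroplastin, read 9.25 to 9.67 and 8.97 to 9.50 over both sets.

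The matrix and clotting proteins come next. Vcan encodes versican, a large chondroitin sulfate proteoglycan (chromosome 13, 89655309 to 89743027), and was the most variable marker, with an SD of 1.01 over the 12 arrays, above that of 98.2% of genes. In the Y set it read 7.97, 10.33 and 9.12 on the TRIM33 arrays and 8.74, 9.66 and 8.78 on the WT arrays. In the Xist set it read 7.83, 8.20 and 6.84 on the TRIM33 arrays and 7.86, 7.33 and 7.47 on the WT arrays. TRIM33 replicate 2 was the highest and TRIM33 replicate 6 the lowest of all, so both ends lie in the same genotype. The set means were 9.10 ± 0.816 and 7.59 ± 0.477 (SD, n = 6), a ratio of 2.85-fold, with 1 array on each side crossing over: TRIM33 replicate 1 of the Y set was below TRIM33 replicate 5 of the Xist set. The set difference was 1.51 in WT arrays and 1.52 in TRIM33 arrays.

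Between genotypes Vcan differed by 0.08 (SE 0.543; limma adjusted p = 1.0), and the 95% interval ran from 0.468-fold to 2.38-fold. With the array set as a block the interval was 0.648-fold to 1.71-fold (SE 0.328; limma adjusted p = 0.994). Without TRIM33 replicate 2 the difference was -0.31, so the sign for Vcan is not settled by these arrays. The genes whose profiles over the 12 arrays were closest to Vcan, by root mean square difference after each gene was centred, were Fpr2, a formyl peptide receptor (0.455), Dpep2, a membrane dipeptidase (0.473), and Gm5150 (0.473), where the spread of Vcan about its own mean was 0.971. Fpr2 read 9.41 to 10.18 on the Y-set and 7.83 to 9.15 on the Xist-set arrays. For Ly6c1, below the array median on all 12 arrays, the closest were Psma8 (0.221), Rbmxl1 (0.234) and Micall2 (0.234), against its own spread of 0.468.

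Fn1 encodes fibronectin, a matrix glycoprotein bound by integrins (chromosome 1, 71585473 to 71653280). It ranged from 11.30 to 11.81 on the TRIM33 arrays (median 11.58) and from 11.45 to 11.90 on the WT arrays (median 11.70). The ranges overlapped over most of their length, and 4 of 6 TRIM33 arrays lay below the WT mean. The difference was -0.10 (SE 0.111; limma adjusted p = 1.0), an interval of 0.792-fold to 1.10-fold. It was -0.04 without TRIM33 replicate 5 and -0.05 without WT replicate 6.

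F13a1 encodes the A subunit of clotting factor XIII, which cross-links fibrin and is also carried by platelets (chromosome 13, 36867178 to 37050244). It ranged from 10.96 to 11.32 on the TRIM33 arrays (median 11.02) and from 11.05 to 11.39 on the WT arrays (median 11.22). The difference was -0.12 (SE 0.0919; limma adjusted p = 1.0), an interval of 0.805-fold to 1.06-fold. F13a1 was lower in the Y set, by -0.16. All 6 of 6 measured platelet genes had higher means there, where 11564 of all 23279 genes did. Ppbp read 6.77 to 8.96 against 3.31 to 3.77 and Pf4 5.23 to 7.55 against 3.86 to 4.14. The summed level of the platelet list was 7.89 to 9.89 on the log2 scale on Y-set and 6.65 to 6.82 on Xist-set arrays, and 6.65 to 9.89 in TRIM33 and 6.69 to 9.62 in WT arrays; its part in F13a1 was not tested.

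Receptors and partners of these matrix proteins showed 0 of 12 genes past the threshold between genotypes, with a median difference of -0.02. Of the 12, 1 had an unadjusted p under 0.05, against 3.07% of all genes. Itgb3, an integrin subunit that pairs with Itgav to bind fibronectin, had the smallest p, at -0.30 (SE 0.13; limma adjusted p = 1.0). Between sets, 6 of the 12 read higher in the Y set without overlap and 0 lower, against 6.59% and 7.45% of all genes. These 6 were Itga4, at 9.93 to 10.31 against 8.65 to 9.25, Itga5, Itgb1, Itgav, the hyaluronan receptor Cd44 and the transglutaminase Tgm2. F13b, the carrier subunit of factor XIII, was below the array median on all 12 arrays.

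Chil3 encodes Ym1, a secreted chitinase-like protein of monocytes, neutrophil precursors and activated macrophages (chromosome 3, 106147554 to 106167564). It ranged from 10.35 to 11.14 on the TRIM33 arrays (median 10.59) and from 10.21 to 10.80 on the WT arrays (median 10.36). In the Y set the TRIM33 arrays read 10.53, 11.14 and 10.75 against 10.69, 10.34 and 10.29, and in the Xist set 10.65, 10.35 and 10.44 against 10.80, 10.21 and 10.37. The overall difference was 0.19 (SE 0.143; limma adjusted p = 1.0), an interval of 0.922-fold to 1.42-fold. It was 0.37 in the Y set (SE 0.184) and 0.02 in the Xist set (SE 0.171), and the interaction did not pass (-0.34, SE 0.265; limma adjusted p = 0.996). Without TRIM33 replicate 2, the highest array, the difference was 0.09. The closely related Chil4 was below the array median on all 12 arrays, at 2.07 to 2.64.

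Hp encodes haptoglobin, the plasma protein that binds free haemoglobin (chromosome 8, 109575128 to 109579172). It ranged from 11.32 to 11.62 on the TRIM33 arrays (median 11.51) and from 11.03 to 11.53 on the WT arrays (median 11.50). The difference was 0.08 (SE 0.0979; limma adjusted p = 1.0), and -0.0027 without WT replicate 2. Hp read 11.48 ± 0.101 on Y-set and 11.45 ± 0.207 on Xist-set arrays (SD, n = 6), while the globin gene Hbb-bs read 10.61 to 11.84 on the Y-set arrays and 1.5 to 3.30 on the others. Hmox1, the enzyme that breaks down haem, read 9.73 to 10.21 on the Y-set and 8.87 to 9.34 on the Xist-set arrays, and the haptoglobin-haemoglobin receptor Cd163 3.73 to 3.89 and 3.78 to 4.26. Of the 7 paralogs and partners of Chil3, Emb and Hp, 0 passed between genotypes (0 with an unadjusted p under 0.05), with a median difference of -0.02. The smallest p belonged to Chil1, another chitinase-like gene, at 0.36 (SE 0.172), and Cd163, at -0.14 (SE 0.0939). Chil1 lay above the array median on 0 of 12 arrays and Cd163 on 1.

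Plac8 encodes a small cysteine-rich protein of myeloid cells (chromosome 5, 100551589 to 100572253). In the Y set it read 11.998, 11.91 and 11.93 on the TRIM33 arrays and 11.88, 11.74 and 11.83 on the WT arrays. In the Xist set it read 11.60, 11.74 and 11.60 against 11.28, 11.62 and 11.49. The difference was 0.16 (SE 0.117; limma adjusted p = 1.0), an interval of 0.937-fold to 1.33-fold, and 0.09 without WT replicate 1. After blocking on array set it had the smallest p of the 10 markers (SE 0.0797; limma adjusted p = 0.937), an interval of 0.991-fold to 1.26-fold. Plac8 was 1.25-fold higher in the Y set than in the Xist set, the ranges meeting at 11.74.

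**Figure D2:**
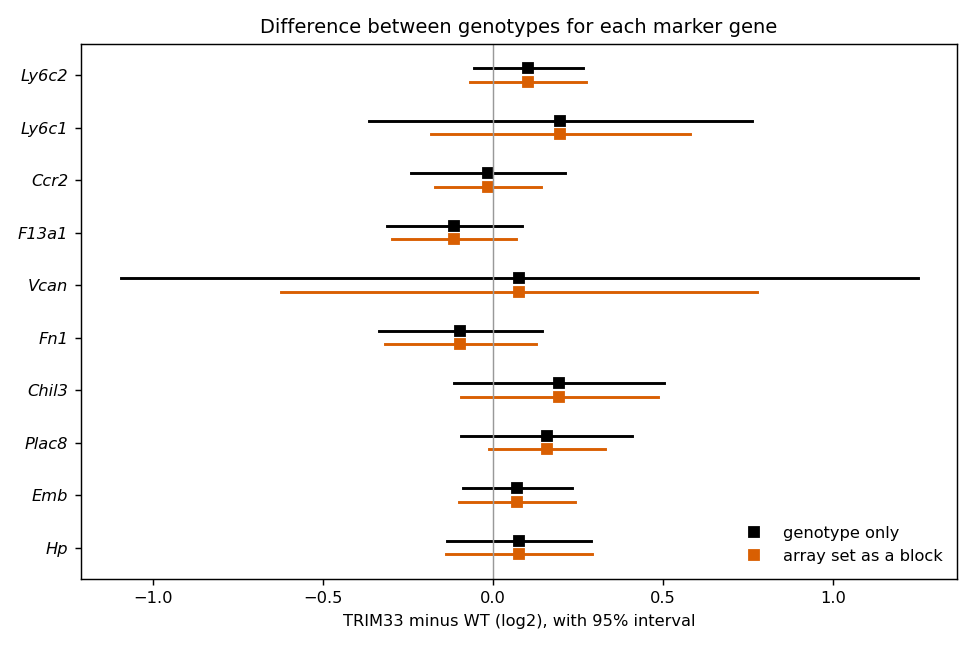
TRIM33 minus WT on the log2 scale for each of the 10 marker genes, with the 95% interval of limma's fit with genotype only (black) and with a block for the array set (orange). All 20 intervals hold 0; that of Vcan is the widest, from -1.10 to 1.25 without the block.

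Taking the 10 markers as a list, 7 had a TRIM33 mean above the WT mean, where 45.0% of all genes did, and the median difference was 0.08 against -0.01 over all genes. With genotype alone in the model, 0 of 10 had an unadjusted p under 0.05 against 3.07% of genes. A block for the array set left 0 of 10, where 0.0387% of genes passed, and 0 of 10 had an unadjusted p under 0.05 against 5.28% of genes. Within the Y set 0 of 10 passed against 0.0344% of genes, and 1 (Ly6c1) had an unadjusted p under 0.05 against 4.57%. Within the Xist set 0 of 10 passed against 0.0129%, and 0 had an unadjusted p under 0.05 against 4.99%. For all 10 the 6 TRIM33 arrays overlapped the 6 WT arrays, as they did for all but 0.198% of genes. The precision differed between markers, with an SE from 0.0742 for Ly6c2 to 0.543 for Vcan.

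Other genes known to be high in Ly6C-high monocytes were taken from a list of 24, of which 21 were analysed here. Between genotypes 0 of 21 passed, and 1 had an unadjusted p under 0.05, against 3.07% of all genes. A higher TRIM33 mean was found for 20 of 21, against 45.0% of all genes, and the median difference was 0.09. The smallest p belonged to Ifi27l2a, an interferon-inducible gene, with means of 10.95 and 10.60 in TRIM33 and WT arrays and a difference of 0.35 (SE 0.152; limma adjusted p = 1.0). With the array set as a block its SE was 0.0826 (limma adjusted p = 0.397), and 4 of the 21 (Ifi27l2a, Dmkn, Wfdc17 and S100a9) had an unadjusted p under 0.05, all higher, against 5.28% of all genes in either direction. Wfdc21 followed, a secreted whey acidic protein family member, with means of 6.07 and 4.86 and a difference of 1.21 (SE 0.659). TRIM33 replicate 2 read 8.32 for Wfdc21, against 3.66 to 5.07 on the other TRIM33 arrays of the Y set.

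Between the sets these 21 genes split. Without overlap, 10 read higher and 3 lower in the Y set, against 6.59% and 7.45% of all genes. Those higher were Clec4d, a C-type lectin, at 6.48 to 7.33 against 4.65 to 5.98, the interferon-induced membrane protein genes Ifitm6 and Ifitm3, Gda, Gsr, Msrb1, Wfdc17, S100a4, S100a6 and Tgfbi. Those lower were Dmkn and the alarmin pair S100a8 and S100a9. S100a8 read 6.88 to 10.33 on the Y-set and 10.55 to 11.33 on the Xist-set arrays, and S100a9 7.52 to 10.58 and 10.92 to 11.66. Within the Y set TRIM33 replicate 2 was the highest array for both, as it was for Vcan. The same array stood apart from the other 5 of its set in mean log2 level for the neutrophil list (5.5 against 4.73 to 4.90), the cell cycle list (6.06 against 4.71 to 5.14), the precursor list (5.43 against 4.81 to 5.19) and the Ly6C-low list (7.98 against 8.46 to 8.71). The part of these lists in its Vcan, Chil3, Wfdc21, S100a8 and S100a9 values was not tested. In the Xist set, which lacks that array, TRIM33 minus WT was 0.51 (SE 0.141) for S100a8 and 0.49 (SE 0.134) for S100a9. Wfdc21 differed there by 1.05 (SE 0.42), Vcan by 0.07 (SE 0.30) and Chil3 by 0.02 (SE 0.171). None of these passed, with a smallest limma adjusted p of 0.851.

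**Figure D3:**
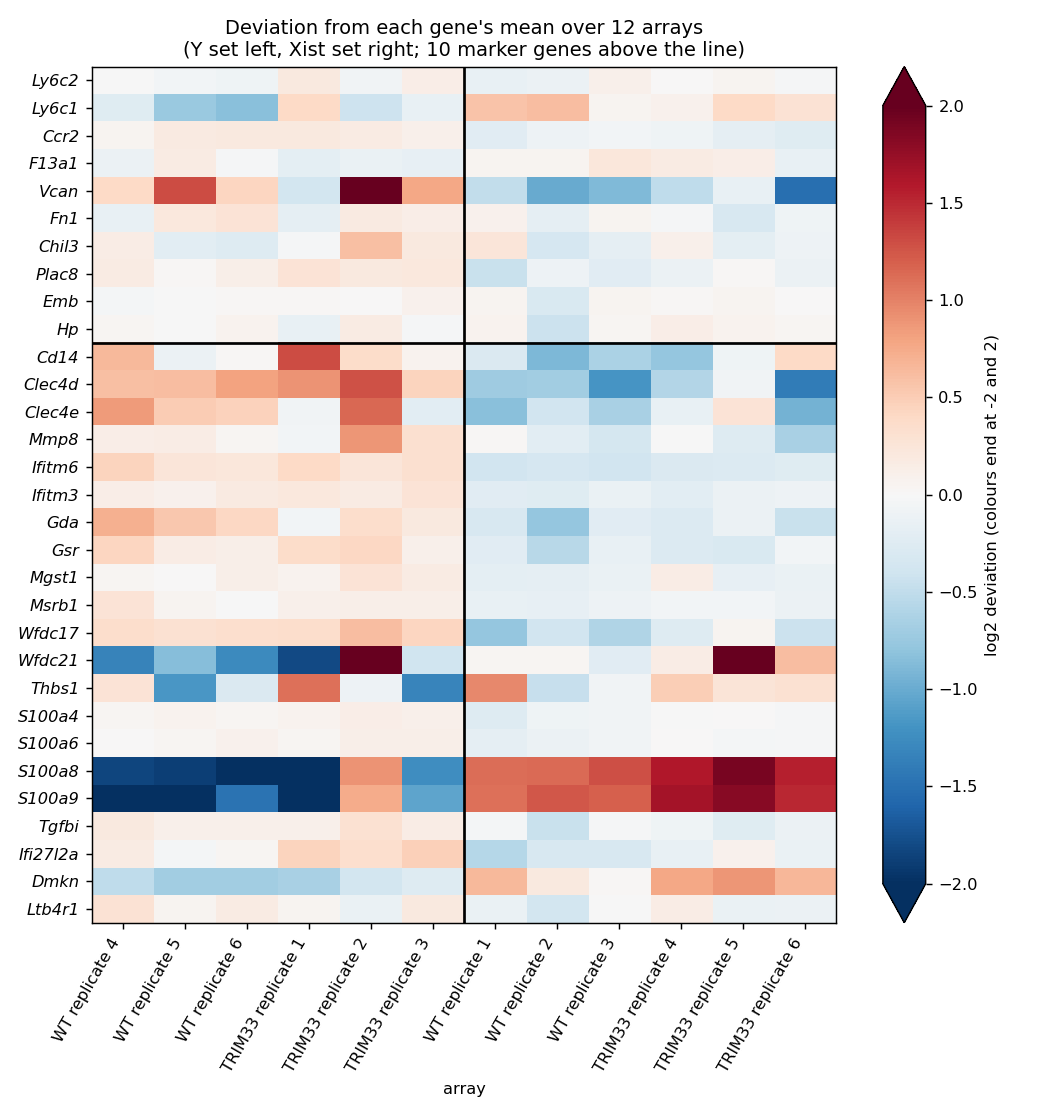
Log2 deviation of each gene from its own mean over the 12 arrays, for the 10 marker genes (above the line) and 21 other genes of Ly6C-high monocytes (below it), with Y-set arrays on the left. Among the markers the widest colours are those of Vcan and Ly6c1, while below the line S100a8 and S100a9 are low on most Y-set arrays and Clec4d is high there.

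Of other genes of the Ly6 family, Ly6d, Ly6e, Ly6g6c, Ly6i and Ly6m were above the array median on all 12 arrays, and Ly6f, Ly6g and Ly6g2 on 0. Of 13 measured, 0 passed between genotypes (0 with an unadjusted p under 0.05), with a median difference of 0.04, and Ly6g2 (-0.19, SE 0.0953) and Ly6h (0.22, SE 0.112) had the smallest p. Ly6e, expressed widely on blood cells, read 12.18 to 12.33 on the Y-set and 12.04 to 12.38 on the Xist-set arrays. Ly6g, the antigen gene of neutrophils, read 2.87 to 3.68 and 3.24 to 3.82. Ly6i was the only 1 of the 13 whose sets did not overlap, a smaller share than the 14.0% of all genes, at 6.86 to 8.10 on the Y-set and 5.21 to 6.03 on the Xist-set arrays. Probes of these similar copies may share targets, so the Ly6i values are uncertain.

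Genes of the sort antigens CD115 and CD11b were present on all arrays, at different levels in the sets. The sort selected on both antigens, so their presence is no independent check of cell identity. Csf1r, which encodes CD115, read 10.88 to 11.09 on the Y-set and 9.73 to 10.12 on the Xist-set arrays. Itgam, which encodes CD11b, read 10.41 to 10.68 and 9.40 to 9.88. Between genotypes Csf1r differed by -0.15 (SE 0.307) and Itgam by 0.08 (SE 0.247), and 0 of 2 passed. Over both genes the summed level was 10.66 to 11.78 in TRIM33 and 10.73 to 11.81 in WT arrays. Genes of Ly6C-low monocytes were higher without overlap in the Y set for 7 of 11, against 6.59% of all genes, with Treml4 at 8.68 to 9.85 against 5.75 to 6.75 and Ace at 8.25 to 9.58 against 4.72 to 5.61. By mean, 10 of the 11 were higher in the Y set, where 11564 of all 23279 genes were. Spn went the other way, with a mean of 8.62 in the Y set against 9.08 in the Xist set (difference -0.47), and its ranges overlapped. The list's summed level was 12.26 to 13.23 on the Y-set and 11.28 to 11.71 on the Xist-set arrays. Between genotypes 0 of 11 passed (0 with an unadjusted p under 0.05), with a median of -0.17, and the smallest p belonged to Cd300e (-0.29, SE 0.159) and Cx3cr1 (-0.29, SE 0.312). Cd300e lay above the array median on only 2 of 12 arrays.

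Genes of marrow precursors read higher in the Xist set. Of 8 precursor genes 6 were higher there without overlap and 1, Flt3, lower, against 7.45% and 6.59% of all genes. The neutrophil and monocyte granule enzyme Mpo read 10.91 to 11.55 against 4.74 to 5.15 in the Y set, and Elane 10.27 to 10.77 against 3.81 to 5.56. All 10 measured cell cycle genes were higher without overlap in the Xist set, against 7.45% of all genes, with Mki67 at 9.46 to 9.92 against 4.91 to 6.58. The summed precursor level was 12.69 to 13.05 on the Xist-set and 8.34 to 9.34 on the Y-set arrays, and 8.34 to 13.05 in TRIM33 and 8.42 to 12.99 in WT arrays. Mpo differed between the sets by -6.34, Elane by -6.05 and Mki67 by -4.15; Ly6c2 differed between the sets by 0.04, Emb by 0.03 and Hp by 0.03. The part of these other genes in the set differences of Vcan, Ccr2, Plac8 and Ly6c1 was not tested.

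**Figure D4:**
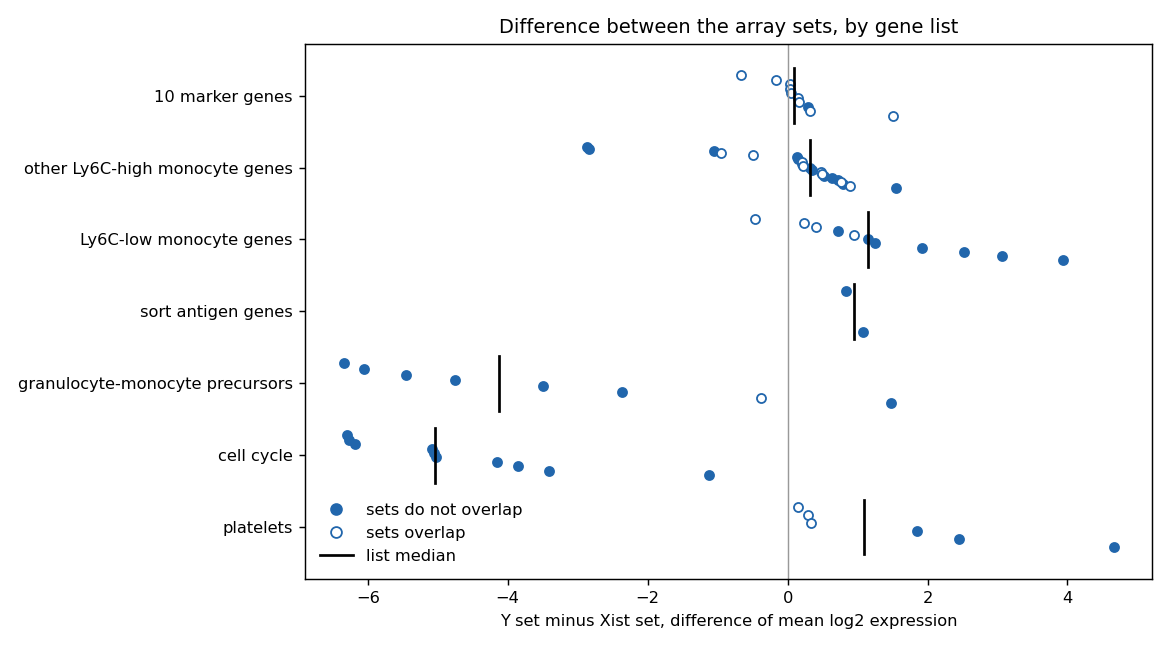
Difference of mean log2 expression, Y set minus Xist set, for each gene (points) and the median of each list (black line); filled points are genes whose 6 arrays of one set do not overlap the 6 of the other. The 10 marker genes lie between -0.67 and 1.51, while precursor genes reach -6.34 and cell cycle genes -6.30.

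Markers of other blood cells were measured as well. The mean log2 level of the T cell list was 4.0 to 4.67 on the Y-set and 3.44 to 3.71 on the Xist-set arrays, with Cd4 at 2.64 to 3.60 and 2.56 to 3.44. The mean of the natural killer list was 3.72 to 4.10 and 3.20 to 3.83, that of eosinophils and basophils 3.36 to 3.54 and 4.18 to 4.72, and that of the neutrophil list 4.73 to 5.5 and 5.41 to 6.04. The B cell list read 5.27 to 6.03 and 4.96 to 5.19, within which Ighm, the heavy chain gene of IgM, read 10.08 to 10.41 and 10.09 to 10.39. The dendritic cell list read 5.81 to 6.61 and 4.83 to 5.65, and the macrophage list 5.37 to 5.65 and 4.80 to 5.16. Of these and of the precursor, cell cycle, platelet and erythroid lists, 0 genes passed between genotypes. With genotype only, 1 of 5 natural killer and 1 of 5 dendritic cell genes had an unadjusted p under 0.05, against 3.07% of all genes. They were Klre1, a natural killer receptor gene, at -0.50 (SE 0.183), and Xcr1, a dendritic cell chemokine receptor gene, at -0.17 (SE 0.0738). The remaining lists had 0. In the fit blocked on array set, Klre1 (SE 0.164) had an unadjusted p under 0.05, and Xcr1 did not. So did Prg2, an eosinophil granule protein gene, at 1.11 (SE 0.284), and Mertk, a macrophage receptor gene, at 0.32 (SE 0.145). Each was 1 of 5 genes of its list, against 5.28% of all genes. Klre1, Xcr1 and Mertk were below the array median on all 12 arrays. Prg2 was below the array median on all Y-set arrays and read 4.81 to 7.53 on the Xist-set arrays.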

How the data were processed

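Values are log2 expression of 24479 gene-level features on 12 single-colour arrays, as deposited by the authors; RMA and Partek are named, without versions, per the submitters' processing notes, and the chip definition and build are not stated there. RMA equalises distributions between arrays, so a change common to most genes would not show. Per the labels' protocols, 900 pg of RNA was amplified. Features were named through GEO's platform annotation: 23281 had 1 symbol, 1198 none, and 23279 genes remained after the brighter feature of a repeated symbol was kept.

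Groups came from the genotype labels; replicate numbers follow accession order. Genotype was tested with limma 3.58.1 in R 4.3.3 (lmFit, eBayes, Benjamini-Hochberg over all genes, threshold 0.05) and checked on simulated data. Array sets are the 2 branches of average-linkage clustering (1 minus Pearson's r) over features outside the gene lists; correlations were 0.986 to 0.992 within and 0.957 to 0.969 between sets. The 10 markers, the 18 other lists and the tests were chosen with earlier results of these data known. Named genes were the 10 markers, Trim33, the 2 genes of smallest p in each list (up to 4 past the threshold) and the 3 closest profiles to markers with an SD above the 75th percentile; other listed genes were named after their values were seen. Alternatives covered the array set, preparation, normalization, filter, variance model and arrays left out. Sequences were read from RefSeq tables with Biopython 1.88. Figures used matplotlib 3.10.9.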

Additional observations from a re-analysis of the deposited data

Results flagged for a closer look

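Within a genotype, an array was singled out where its gap to the nearest of the other 5 exceeded 0.625 of the group's range (Dixon's 95% critical value). The screen covered the 10 markers, Trim33 and the 2 genes of smallest p in each list, and not the closest profiles or other genes named above. Chance singles out about 5% of groups. Here it was 8 of 94 groups tested, and 2 of 20 among the 10 markers. Both of those were WT replicate 2, which read lowest for Emb at 10.64 (next lowest 10.90) and for Hp at 11.03 (next lowest 11.45). The same array was also the lowest of 12 for Chil3, at 10.21, and had the highest array median, 4.25.

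Among the other genes screened, TRIM33 replicate 5 read highest of its group for Ly6h at 4.68 and for Chil1 at 3.92. TRIM33 replicate 2 did so for Retnlg at 5.03 and for Gp1bb at 4.61, TRIM33 replicate 3 for Ms4a1 at 3.43, and WT replicate 4 for Ccl8 at 3.23.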

How the results depend on the processing

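No marker passed the threshold under any alternative (smallest limma adjusted p = 0.837), nor did any other listed gene. Of 359 recomputed marker differences 337 kept their direction and 22 turned; Ly6c2, F13a1, Fn1 and Plac8 turned under none. In the Y set alone Ccr2 read 0.0090 and Hp -0.036, and in the Xist set alone Ly6c1 read -0.16. In the 8 arrays not titled as mixes Ccr2 read 0.0053, Vcan -0.14 and Chil3 -0.024. After a second quantile normalization Emb read -0.0066. With each array left out and genotype only, Vcan ranged from -0.31 (without TRIM33 replicate 2) to 0.38, also turning without TRIM33 replicate 3 and each of WT replicates 1 to 3; Ccr2 ranged from -0.061 to 0.031, turning without TRIM33 replicates 5 or 6 and WT replicates 5 or 6; and Hp ranged from -0.0027 (without WT replicate 2) to 0.11. With the array set as a block the ranges were -0.19 to 0.33 for Vcan (-0.051 without TRIM33 replicate 5), -0.04 to 0.0040 for Ccr2 (0.0013 without WT replicate 3) and -0.0083 to 0.12 for Hp. The median marker difference stayed above 0, from 0.02 to 0.08 over the settings that kept all arrays or used a subset by set or title, from 0.0077 (without WT replicate 2) to 0.10 with each array left out, and from 0.02 to 0.10 with the block as well. The causes were not tested. With the mix number of the titles as a replicate block, 0 of 10 markers passed and the median difference was 0.08; the same-numbered mixes share only a number (2 pairs, r = 0.118 over genes). Ly6c1 was not fitted when genes under the median level were left out, since it is one of them. The number of arrays limits precision, most for Vcan.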
